A study of Mus musculus with 6 samples.

Results

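The genes described here encode the nuclear subunits of the mitochondrial respiratory chain and of ATP synthase. They were taken by gene name from a table of 30862 mouse gene rows: Nduf with a letter a, b, c, s or v and a number, Sdha to Sdhd, names that start with Uqcr, names that start with Cox4 to Cox8, and names that start with Atp5. This gave 82 genes, 37 of complex I, 4 of complex II, 8 of complex III, 16 of complex IV and 17 of complex V. A further 9 names ending in a pseudogene mark (-ps) were left out, of which Cox5b-ps had the highest level, 4.64 to 7.26 FPKM (fragments scaled to transcript length and to library size) over the 6 libraries. Despite its name, the annotation gives Cox5b-ps as protein coding. RNA sequencing had been made from cells labelled as mouse ovarian granulosa cells, the cells that surround and support the oocyte. Both groups came from ovaries of 21-day-old ICR females and adhered to the plate for 12 h. The PS-MP group (3 libraries) was then kept for 24 h with sonicated polystyrene particles of 100 nm at 750 µg/mL, and the control group (3 libraries) for the same 24 h at 0 µg/mL. The labels enter the control cells as WT under treatment and name no other genotype. They call each library a biological replicate, but do not give the number of animals or whether the libraries came from separate cultures. The p-values therefore measure only the spread between these libraries.

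Electrons enter the chain at complex I from NADH and at complex II from succinate, pass through complex III and cytochrome c to complex IV, which reduces oxygen, and the proton gradient so built drives ATP synthase, complex V. Complexes I, III, IV and V are mosaics of nuclear-encoded and mitochondrially encoded subunits, while all of complex II is encoded in the nucleus. Granulosa cells pass pyruvate and other metabolites to the oocyte and run the first, mitochondrial step of steroid synthesis, so respiratory subunits are part of their ordinary equipment.

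Each library held between 56967176 and 70240738 estimated counts in total, of which the members took 0.611% to 0.678%. FPKM summed over all genes was 284964, 285443 and 290681 in PS-MP 1, 2 and 3, against 274177, 278379 and 283405 in control 1, 2 and 3, so FPKM leans to the PS-MP side, while the log2 fold changes below come from counts scaled by TMM. Of 11 granulosa marker genes listed in the table, Foxl2, Nr5a1 and Cyp11a1 had at most 0.204 FPKM in any library, and Inhba held most of the list's sum, which ran from 104 to 152 FPKM in PS-MP libraries and from 126 to 165 FPKM in control libraries. The 10 pericyte and smooth muscle markers summed to 2496 to 3714 FPKM in PS-MP libraries and to 2761 to 3534 FPKM in control libraries. Acta2 and Tagln held most of that sum, while Rgs5, a pericyte marker of the list, had at most 0.278 FPKM. Leukocyte markers summed to 6.85 to 9.42 FPKM in PS-MP libraries and to 7.35 to 10.8 FPKM in control libraries, and endothelial markers to at most 0.407 FPKM. Of the other granulosa markers, Gja1 had 9.34 to 11.7 FPKM, Fst 3.25 to 8.50 FPKM and Inha 0.723 to 1.20 FPKM over the 6 libraries. Amh, Esr2, Hsd17b1 and Hsd3b1 had at most 0.293 FPKM. Foxl2, Nr5a1 and Cyp11a1 are thus near 0 in cells labelled as granulosa cells, while Inhba, Fst and Gja1 are not.

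No subunit gene met the threshold for a change after exposure to the particles. In edgeR's quasi-likelihood test with Benjamini-Hochberg adjustment over 17186 tested genes, 0 of 80 tested members had an adjusted p under 0.05 with at least a 1.5-fold change, as in the whole table, where 0.0% of genes were called. The lowest adjusted p of any member was 1.00. Without adjustment, 2 members had a p under 0.05, Sdhd on the higher and Uqcrb on the lower side, against 226 genes or 1.32% of all tested (0.85% higher and 0.465% lower), and DESeq2 gave 0 members at that level. The 95% interval of the log2 fold change lay within 1.5-fold in either direction for 72 of the 80. The same held for 9822 of 17186 genes tested. Above 10 CPM (counts scaled to the library total) it held for 8554 of 9324 genes and for 71 of 73 members. By complex it was 34 of 37 in complex I, 4 of 4 in complex II and 8 of 8 in complex III. It was 11 of 14 in complex IV and 15 of 17 in complex V. In bulk RNA a lower level in each cell and a smaller share of cells of a type cannot be told apart.

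**Figure D1:**
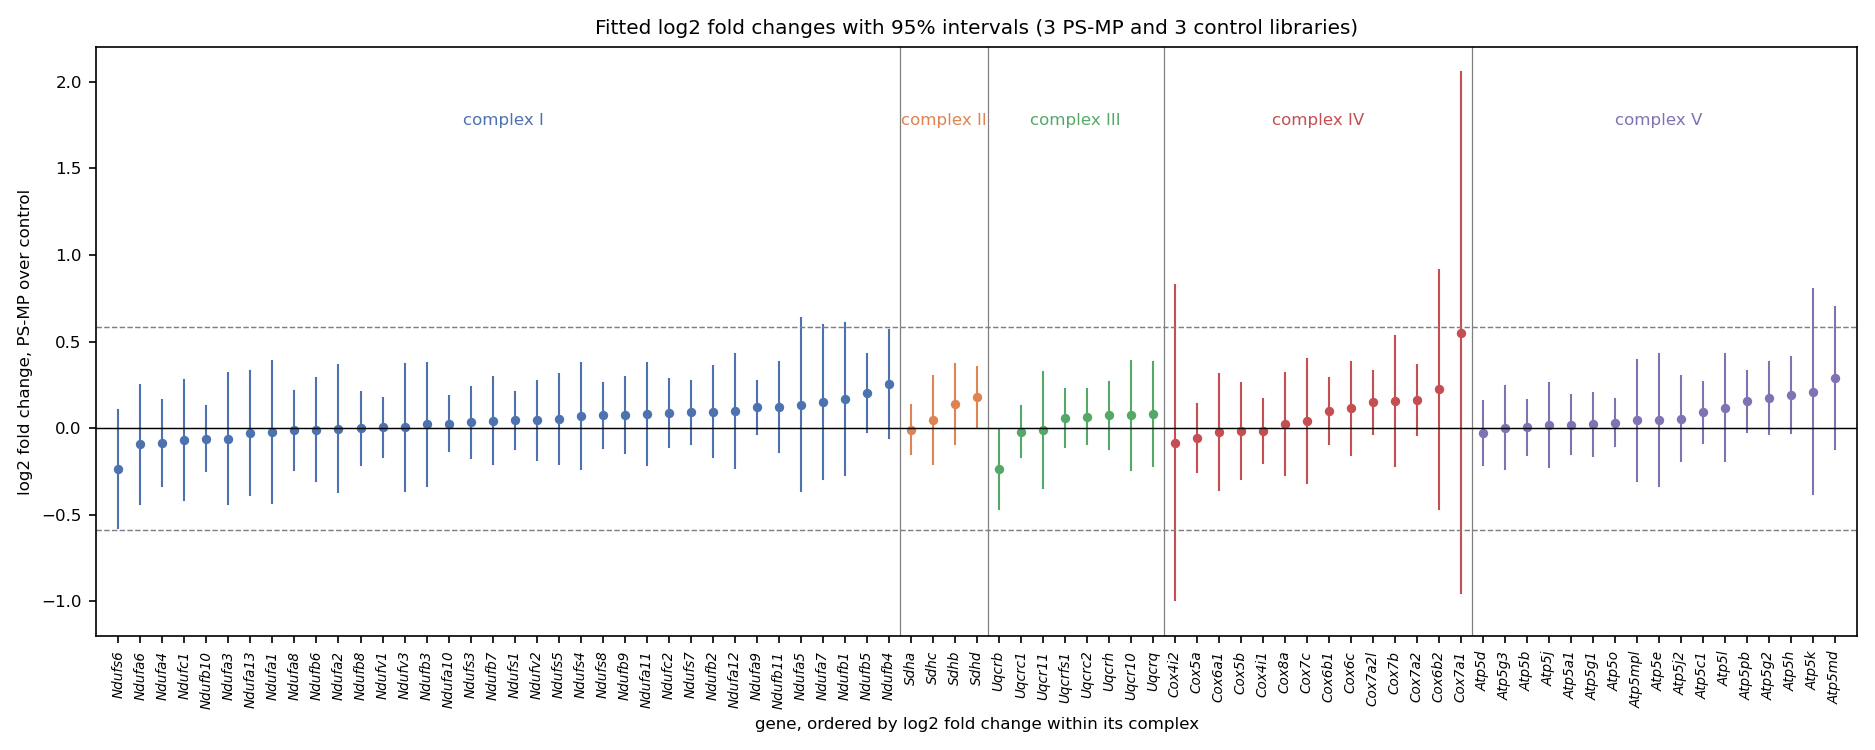
Fitted log2 fold change (PS-MP over control, vertical axis) of the tested members, 1 of them not shown, each with its 95% interval, ordered within complexes I to V; the dashed lines mark 1.5-fold. All points but that of Cox7a1 lie between -0.24 and 0.29, and the widest intervals belong to the low-expressed Cox7a1, Cox4i2 and Cox6b2.

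The median log2 fold change over the members was 0.05, against 0.00 over all genes tested, and 58 of 80 members (72.5%) lay above 0, against 50.0% of all genes and 47.9% of genes above 10 CPM (counts scaled to the library total). The share of genes above 0 also differed by gene length, as given with the lengths below. By complex the median was 0.04 in complex I (25 of 37 above 0), 0.09 in complex II (3 of 4), 0.06 in complex III (5 of 8), 0.07 in complex IV (9 of 14) and 0.05 in complex V (16 of 17). The size of the differences was small: the median absolute log2 fold change was 0.07 over the members, against 0.09 over all genes tested and 0.06 over genes above 10 CPM. This lean depended on the libraries numbered 1. Without control 1 the members' median was -0.01 with 36 of 80 above 0, and the medians of complexes I to V were -0.02, 0.02, -0.04, -0.04 and 0.02. That fit kept PS-MP 1. With both libraries of number 1 left out, the members' median was 0.01 with the replicate number as a block, with 45 of 80 above 0, and 0.02 without the block. Of the 10 markers of pericytes and smooth muscle, 8 were below 0, with a median log2 fold change of -0.15, and medians of -0.19, -0.22 and -0.14 within numbers 1, 2 and 3. Of these 10, 0 were called in either fit. With the block, 5 had an unadjusted p under 0.05 (edgeR), against 4.94% of all genes tested (2.22% lower). Lmod1 and Pdgfrb had PS-MP libraries all below the control libraries, as did 2.68% of all genes tested. Without control 1 the median of these markers was -0.05. The part of any cells with these markers in the members' values was not tested.

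The subunit genes spanned a wide range of levels. Summed over the members, FPKM was 3049, 3120 and 3094 in PS-MP 1 to 3, against 2747, 3108 and 3028 in control 1 to 3. Complex V held 30.3% to 34.0% of that sum over the 6 libraries, complex I 25.7% to 27.0%, complex IV 24.1% to 26.8%, complex III 10.7% to 11.1% and complex II 4.97% to 5.37%. The median member had 20.5 FPKM in complex I, 34.3 FPKM in complex II, 43.8 FPKM in complex III, 28.3 FPKM in complex IV and 36.9 FPKM in complex V. In all, 79 members averaged over 1 FPKM.

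**Figure D2:**
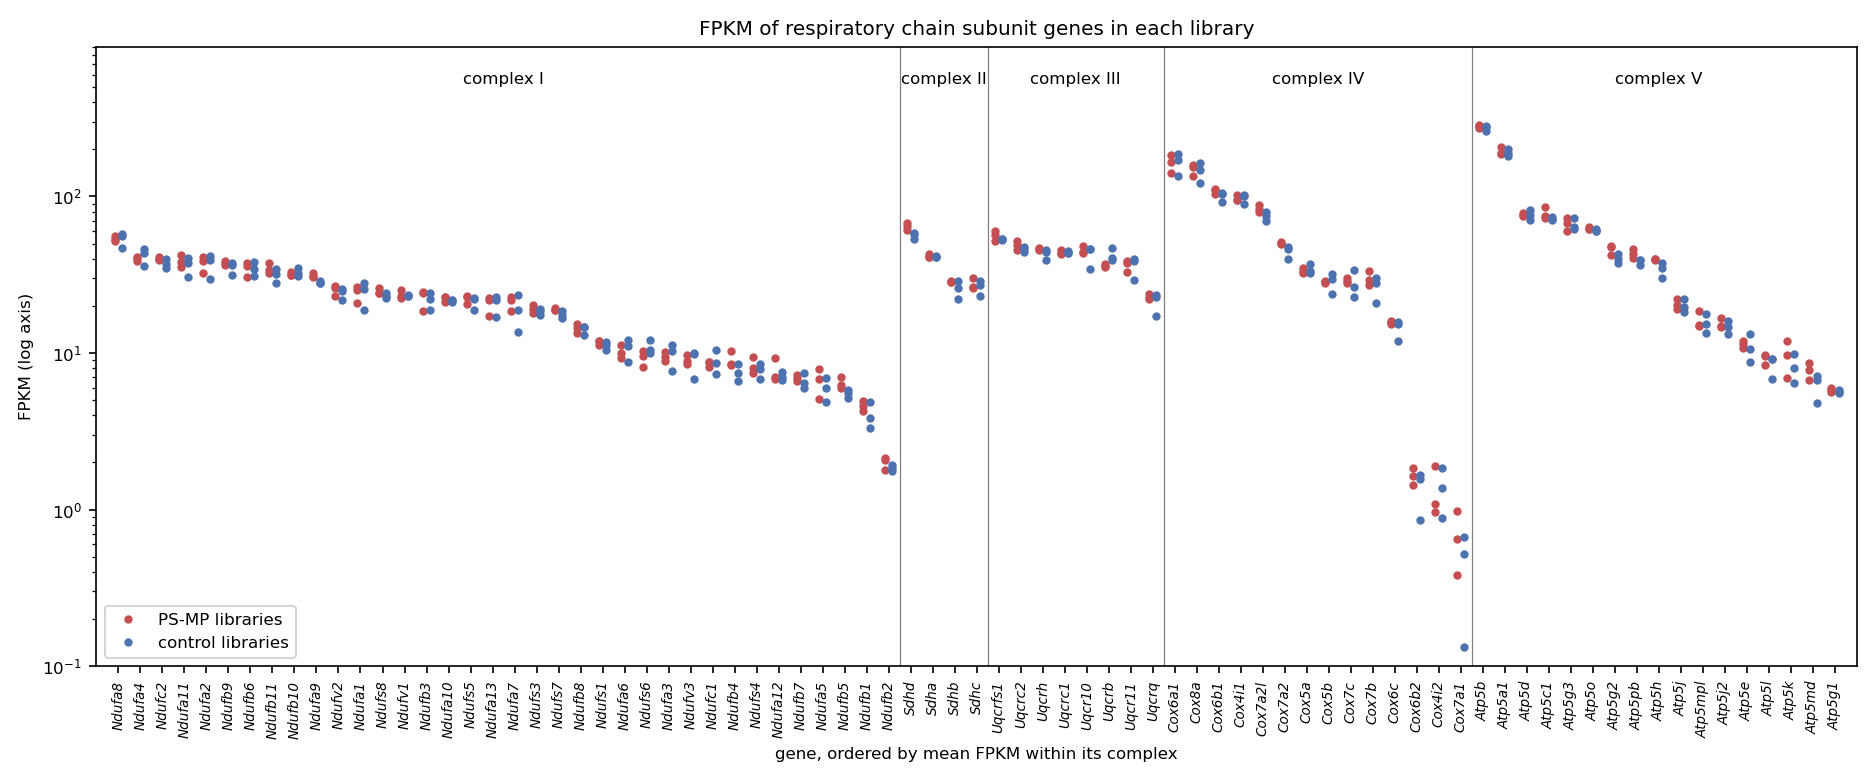
FPKM (vertical log axis) of the members averaging over 0.5 FPKM, 1 of them not shown, in each PS-MP library and each control library, ordered by mean level within complexes I to V. Atp5b stands highest with a mean of 277 FPKM, and PS-MP and control points overlap in most genes.

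In complex I, the core subunits encoded in the nucleus form the arm that holds the flavin and the iron-sulfur clusters. All 7 had a log2 fold change above 0, with a median of 0.05, against 18 of 30 above 0 and a median of 0.03 in the accessory subunits, which surround the core and help its assembly and stability. Ndufs7, which holds the last iron-sulfur cluster before the quinone, had 18.9, 19.0 and 19.3 FPKM in PS-MP 1 to 3, against 16.8, 17.6 and 18.6 FPKM in control 1 to 3. All 3 PS-MP libraries lay above all 3 control libraries, by a log2 fold change of 0.09 ± 0.08 (SE, edgeR, Benjamini-Hochberg adjusted p = 1.00), and 49.4% of its exon bases lie inside other genes, whose reads it may share.

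Ndufv1, which binds the flavin and takes electrons from NADH, had 23.1, 25.1 and 22.6 FPKM in PS-MP 1 to 3, against 23.5, 23.0 and 23.2 FPKM in control 1 to 3, with overlapping groups and a log2 fold change of 0.00 ± 0.07. Its partner Ndufv2 had a log2 fold change of 0.05 ± 0.10. Ndufs1, Ndufs3 and Ndufs8, further cluster-bearing or scaffold subunits of the core, lay between 0.03 and 0.07. Without control 1, 5 of the 7 core genes lay above 0, with a median of 0.06.

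Among the accessory subunits of complex I, Ndufb4 had the highest log2 fold change, 0.25 ± 0.13, with 8.43, 10.4 and 8.52 FPKM in PS-MP 1 to 3, against 6.64, 7.49 and 8.46 FPKM in control 1 to 3. Its groups overlapped in CPM, since PS-MP 1 and control 3 had nearly the same level. Ndufb5, also of the membrane arm, had 7.02, 5.98 and 6.28 FPKM in PS-MP 1 to 3, against 5.56, 5.76 and 5.16 FPKM in control 1 to 3. Here all PS-MP libraries lay above all control libraries, by 0.20 ± 0.10 on the log2 scale. Ndufa9, which sits at the junction of the arms, also had groups that did not overlap, with 32.4, 30.8 and 30.7 FPKM in PS-MP 1 to 3, against 28.1, 28.8 and 28.2 FPKM in control 1 to 3 and a log2 fold change of 0.12 ± 0.06. The lowest value in the complex was that of Ndufs6, an accessory zinc-binding subunit, at -0.24 ± 0.14, with 9.53, 10.3 and 8.11 FPKM in PS-MP 1 to 3, against 10.4, 12.1 and 9.99 FPKM in control 1 to 3. Its groups overlapped, although PS-MP lay below control within each replicate number, with log2 differences of -0.15, -0.26 and -0.30. Next were Ndufa6 at -0.09 ± 0.15 and Ndufa4 at -0.09 ± 0.10. Ndufa4 is listed here by its name, though its protein is now regarded as a component of complex IV. Ndufb2, an accessory subunit of the membrane arm, was the lowest-expressed gene of complex I, with 2.15, 2.08 and 1.78 FPKM in PS-MP 1 to 3, against 1.76, 1.83 and 1.94 FPKM in control 1 to 3.

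Complex II, succinate dehydrogenase, links the citrate cycle to the chain. Its 4 genes summed to 164, 164 and 159 FPKM in PS-MP 1 to 3, against 140, 154 and 155 FPKM in control 1 to 3. These sums did not overlap, which no other complex showed, but the all-gene FPKM sums did not overlap either. Sdhd, a membrane anchor subunit that binds quinone, lies at chr9:50507657-50515112 on the minus strand (GRCm39). It had 68.0, 64.6 and 61.4 FPKM in PS-MP 1 to 3, against 53.3, 58.2 and 57.5 FPKM in control 1 to 3. All PS-MP libraries lay above all control libraries, by a log2 fold change of 0.18 ± 0.07 (95% interval 0.01 to 0.35, unadjusted p = 0.0444, edgeR Benjamini-Hochberg adjusted p = 1.00). The other anchor, Sdhc, had 26.5, 30.1 and 26.1 FPKM in PS-MP 1 to 3, against 23.0, 28.8 and 27.1 FPKM in control 1 to 3, with overlapping groups. Sdhb, the iron-sulfur subunit, had 28.5, 28.5 and 28.8 FPKM in PS-MP 1 to 3, against 22.2, 26.0 and 28.7 FPKM in control 1 to 3, a spread that lay almost wholly in the control libraries. Sdha, the flavin-bearing catalytic subunit, was nearly level, with 40.8, 41.2 and 42.9 FPKM in PS-MP 1 to 3, against 41.1, 41.4 and 41.3 FPKM in control 1 to 3, and a log2 fold change of -0.01 ± 0.06.

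Complex III passes electrons to cytochrome c. Uqcrb, a small subunit near its quinone site, lies at chr13:67048681-67053442 on the minus strand (GRCm39). It had 36.0, 35.6 and 36.8 FPKM in PS-MP 1 to 3, against 39.0, 46.7 and 40.2 FPKM in control 1 to 3. It was the only tested member whose PS-MP libraries all lay below all control libraries in CPM, with a log2 fold change of -0.24 ± 0.10 (95% interval -0.47 to -0.01, unadjusted p = 0.0454, edgeR Benjamini-Hochberg adjusted p = 1.00). Uqcrfs1, the Rieske iron-sulfur protein and the highest-expressed gene of the complex, had 59.7, 56.7 and 52.1 FPKM in PS-MP 1 to 3, against 53.5, 52.7 and 53.2 FPKM in control 1 to 3, with overlapping groups. The large core proteins Uqcrc1 and Uqcrc2 had log2 fold changes of -0.02 ± 0.06 and 0.07 ± 0.07. Uqcrh, the hinge protein by which cytochrome c docks, was at 0.07 ± 0.08. The small subunits Uqcrq, Uqcr10 and Uqcr11 were at 0.08 ± 0.13, 0.08 ± 0.13 and -0.01 ± 0.14, each with control 1 lowest. Cyc1, the cytochrome c1 gene that the name rule does not take, was at -0.02 ± 0.07.

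Complex IV, cytochrome c oxidase, has tissue-specific copies of several nuclear subunits. The ubiquitous copies made up nearly all of the signal. Cox4i2, the lung and hypoxia copy, held 0.981% to 1.82% of the summed FPKM of Cox4i1 and Cox4i2 over the 6 libraries. Cox6b2, the testis copy, held 0.926% to 1.64% beside Cox6b1, and Cox7a1, the heart and muscle copy, 0.33% to 1.91% beside Cox7a2. Cox6a2, the other heart and muscle copy, was listed at 0 in all 3 PS-MP libraries and had 0.356, 0.208 and 0 FPKM in control 1 to 3, which was too low to be tested. Cox6c2, which the annotation gives as a processed pseudogene although its name lacks the mark, had 0.222 to 0.683 FPKM and was not tested either. Striated muscle and testis markers stayed at or below 0.167 and 0.071 FPKM in sum.

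The leading genes of complex IV were Cox6a1, Cox8a and Cox6b1, small subunits around the catalytic core. Cox6a1 had 141, 166 and 184 FPKM in PS-MP 1 to 3, against 135, 171 and 186 FPKM in control 1 to 3. The values followed the replicate number and not the treatment, with both libraries numbered 1 lowest and both numbered 3 highest. Cox7a2 had 51.3, 50.5 and 49.8 FPKM in PS-MP 1 to 3, against 40.1, 46.2 and 47.4 FPKM in control 1 to 3. Its groups did not overlap, at a log2 fold change of 0.16 ± 0.09. Cox7a2l, whose protein helps join complexes III and IV into supercomplexes, had 82.9, 80.0 and 88.8 FPKM in PS-MP 1 to 3, against 69.3, 75.4 and 79.2 FPKM in control 1 to 3. It showed the same lack of overlap, at 0.15 ± 0.08. At the other end, among genes of the complex above 10 CPM, Cox5a, a matrix-side subunit, was at -0.05 ± 0.08. Below that level, Cox4i2 was at -0.08 ± 0.39, Cox6b2 at 0.22 ± 0.29 and Cox7a1 at 0.55 ± 0.64.

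In complex V, the catalytic beta subunit Atp5b and the alpha subunit Atp5a1 had the highest levels of all members. Atp5b had 285, 282 and 272 FPKM in PS-MP 1 to 3, against 283, 278 and 263 FPKM in control 1 to 3, and Atp5a1 had 208, 187 and 189.7 FPKM in PS-MP 1 to 3, against 199.5, 189 and 181 FPKM in control 1 to 3. Both overlapped between the groups, at log2 fold changes of 0.00 ± 0.07 and 0.02 ± 0.07. In 3 of the 17 genes all PS-MP libraries lay above all control libraries in CPM, as did 3.53% of all tested genes. Atp5h (subunit d of the peripheral stalk, which holds the catalytic head to the membrane) had 40.0, 39.9 and 39.0 FPKM in PS-MP 1 to 3, against 30.0, 34.9 and 37.7 FPKM in control 1 to 3, a log2 fold change of 0.19 ± 0.09. Atp5pb (subunit b) had 46.0, 43.2 and 40.6 FPKM in PS-MP 1 to 3, against 39.3, 39.2 and 36.3 FPKM in control 1 to 3, a log2 fold change of 0.16 ± 0.08. Atp5o (the oligomycin sensitivity protein) had 63.7, 62.4 and 62.1 FPKM in PS-MP 1 to 3, against 59.8, 60.1 and 61.8 FPKM in control 1 to 3, a log2 fold change of 0.03 ± 0.06. The highest value in the complex was that of Atp5md, a small membrane subunit, with 6.76, 8.60 and 7.80 FPKM in PS-MP 1 to 3, against 4.80, 7.17 and 6.68 FPKM in control 1 to 3. Its groups overlapped, its log2 fold change was 0.29 ± 0.17, and 44.9% of its exon bases lie inside other genes. Atp5d, the delta subunit, was the 1 of 17 genes below 0, at -0.03 ± 0.08.

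The c subunit, which forms the rotor ring, is encoded by Atp5g1, Atp5g2 and Atp5g3, which give the same mature protein. Atp5g2 made up 37.9%, 39.2% and 39.0% of their summed FPKM in PS-MP 1 to 3, against 36.7%, 35.2% and 35.9% in control 1 to 3. Atp5g3 made up 57.4%, 56.0% and 55.8% in PS-MP 1 to 3, against 58.2%, 60.0% and 58.8% in control 1 to 3. Neither share overlapped between the groups, which was seen among 6 sets of paralogous subunits and singled out after the values were seen, so it was not tested. Atp5g1 held 4.74% to 5.29%. By level, Atp5g2 had a log2 fold change of 0.18 ± 0.09 and Atp5g3 of 0.00 ± 0.10, and in FPKM both overlapped between the groups.

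**Figure D3:**
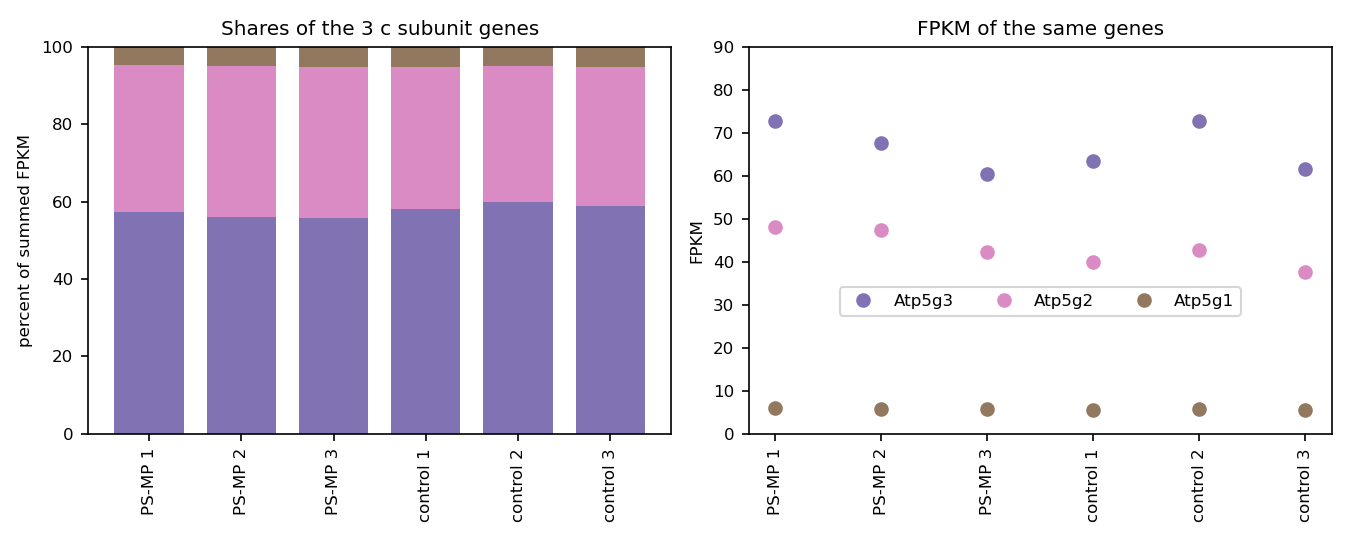
Left, share of the summed FPKM (percent) held by Atp5g3, Atp5g2 and Atp5g1 in each PS-MP and control library; right, FPKM of the same genes. The Atp5g2 share is 37.9% to 39.2% in PS-MP libraries and 35.2% to 36.7% in control libraries, while the FPKM points of each gene overlap.

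Over all complexes, 10 members had PS-MP libraries that all lay above the control libraries in CPM, among them Ndufa9, Ndufb5, Sdhd, Cox7a2l, Cox7a2, Atp5pb and Atp5h, and 1 had them all below (Uqcrb). Groups did not overlap in 6.21% of all tested genes, 3.53% higher and 2.68% lower, and in 5.57% of genes above 10 CPM, 3.04% higher. By complex, the members that stood apart upward were 4 of 37 in complex I, 1 of 4 in complex II, 0 of 8 in complex III, 2 of 14 in complex IV and 3 of 17 in complex V.

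Control 1 stood low across the family. Each library's deviation is its log2 CPM minus the mean of the 6 libraries for that gene. The median deviation over the members was -0.02, 0.06 and 0.03 in PS-MP 1 to 3, and -0.18, 0.10 and -0.01 in control 1 to 3, while for genes above 10 CPM it lay between -0.00 and 0.01 in every library. Control 1 was the lowest of the 6 libraries in 55 of 80 members (68.8%), against 21.7% of genes above 10 CPM. This was so in 13 of 14 genes of complex IV, 24 of 37 of complex I, 11 of 17 of complex V, 3 of 4 of complex II and 4 of 8 of complex III. The complex I core stood less low there, with a median deviation of -0.05 in control 1, against -0.20 in the accessory subunits; that difference was not tested.

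**Figure D4:**
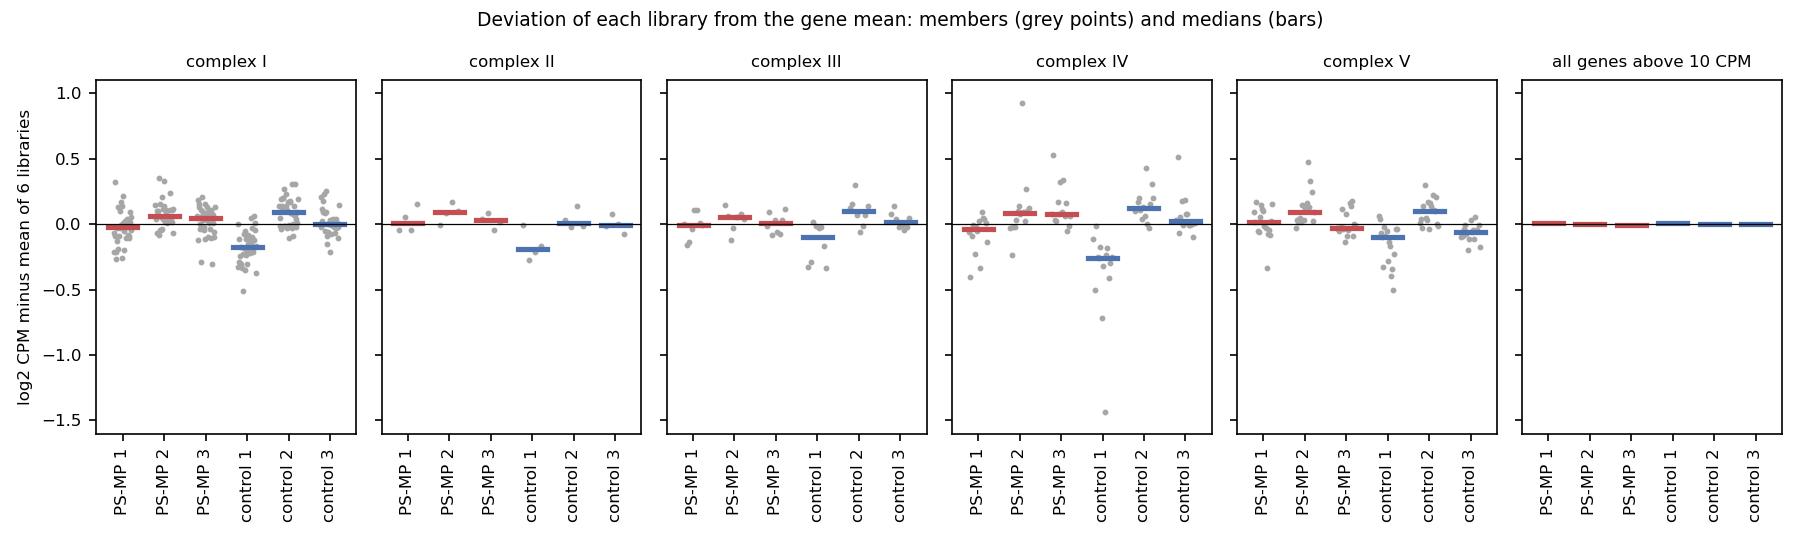
Deviation of each library (log2 CPM minus the mean of 6 libraries, vertical axis) for the members of complexes I to V, PS-MP libraries left of control libraries; grey points are genes, bars are medians, and the last panel gives the medians of all genes above 10 CPM. The control 1 bar lies lowest in every complex, at -0.26 in complex IV, while the all-gene bars lie near 0.

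Gene length moved with this. The length of each gene was taken as that implied by its deposited count and FPKM. Members up to 1000 bases had a median deviation of -0.24 in control 1 (18 genes), members over 4000 bases -0.03 (10 genes). Among all genes above 10 CPM the same deviation was -0.10 up to 1000 bases (234 genes) and 0.04 over 4000 bases (6096 genes). Across the 80 members, which share the library and its depth, the deviation in PS-MP 1 had a Pearson correlation of 0.435 with log2 length, and that in control 1 one of 0.393. In PS-MP 2 and 3 it was -0.172 and -0.26, and in control 2 and 3 -0.384 and -0.363. Over all genes above 10 CPM it was 0.046 in PS-MP 1 and 0.193 in control 1. By log2 fold change, 64.5% of genes above 10 CPM up to 1000 bases lay above 0, against 50.0% of such members. From 1000 to 2000 bases it was 65.7% against 72.4%, from 2000 to 4000 bases 56.9% against 87.0%, and over 4000 bases 41.9% against 80.0%. After offsets that remove each library's trend with length, 53 of 80 members lay above 0, with a median log2 fold change of 0.03. Marker levels moved with the replicate number as well: 9 ovarian surface epithelium markers summed to 33.4, 10.9 and 4.51 FPKM in PS-MP 1 to 3, against 28.7, 10.6 and 4.50 FPKM in control 1 to 3, and 7 fibroblast markers to 1207, 958 and 769 FPKM in PS-MP 1 to 3, against 1426, 997 and 748 FPKM in control 1 to 3. Both sums were thus highest, within each group, in the library numbered 1. So was the granulosa sum, at 152, 134 and 104 FPKM in PS-MP 1 to 3, against 165, 128 and 126 FPKM in control 1 to 3. The pericyte and smooth muscle sum was too, at 3714, 3302 and 2496 FPKM against 3534, 3381 and 2761 FPKM. In those lists Gja1 and Notch3, among others, were lowest in number 1 of each group. Leukocyte markers summed highest in number 3, at 9.42 FPKM in PS-MP 3 and 10.8 FPKM in control 3. Col1a1, Col1a2 and Col3a1 held most of the fibroblast sum, and Lum and Postn also stood highest in number 1. Dcn went the other way, lowest in number 1 of each group, at 8.68 FPKM in PS-MP 1 and 6.72 FPKM in control 1. Pdgfra was nearly level, at 13.8 to 15.3 FPKM over the 6 libraries. Of the epithelial markers, Muc16 was listed at 0 in all but PS-MP 1. In the other direction, Krt7 stood highest in PS-MP 3, at 0.073 FPKM. Lgals7 had 0 FPKM in control 1 and 0.361 FPKM in control 3. The part of length, and of any cells with these markers, in the low values of control 1 was not tested beyond the length offsets.

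Replicate numbers are shared by the groups, and samples of the same number deviated together for numbers 1 and 3, for number 2 not clearly. Differences within each number are therefore given too. Within number 1, PS-MP minus control had a median of 0.15 over the members (68 of 80 above 0), within number 2 it was 0.01 (41 of 80) and within number 3 it was 0.03 (49 of 80). By complex, the medians for numbers 1, 2 and 3 were 0.14, -0.02 and 0.02 in complex I, 0.25, 0.07 and 0.03 in complex II, 0.14, -0.04 and -0.04 in complex III, 0.24, -0.03 and 0.06 in complex IV, and 0.15, 0.03 and 0.05 in complex V. Only complexes II and V were above 0 in all 3. Single genes above 0 in all 3 numbers were 24 of 80, among them 8 of 17 in complex V and 6 of 14 in complex IV, against 14.6% of all genes tested, and 2 were below 0 in all 3, against 13.3%.

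**Figure D5:**
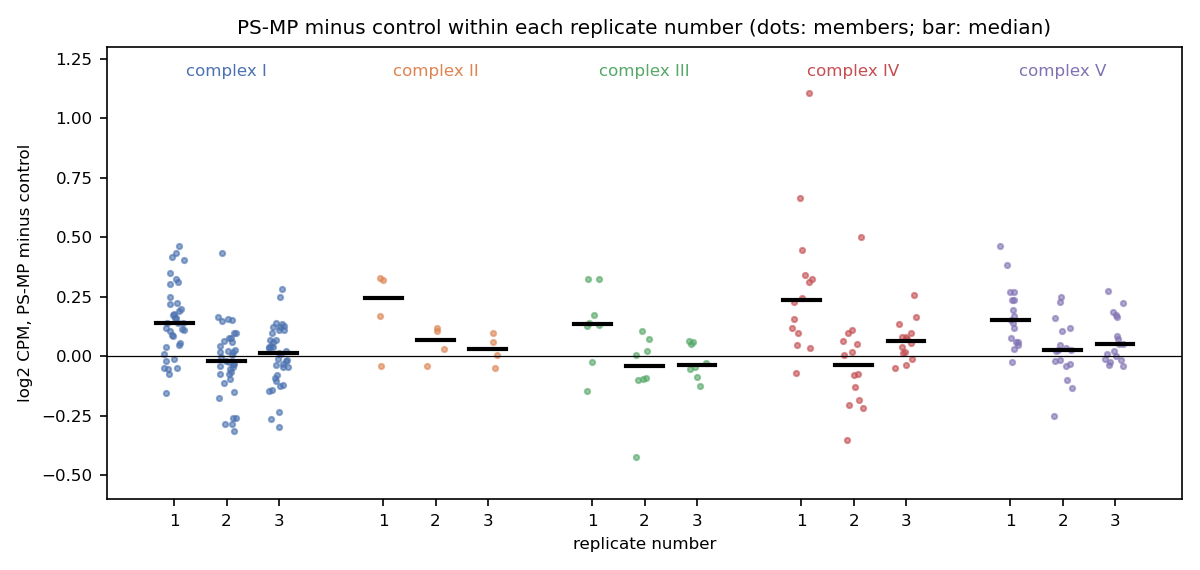
log2 CPM of PS-MP minus control within replicate numbers 1, 2 and 3 (vertical axis) for the tested members of complexes I to V; dots are genes and bars are medians. The number 1 bars lie between 0.14 and 0.25, and those of numbers 2 and 3 between -0.04 and 0.07.

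With the replicate number as a block, again 0 members were called (1 of all genes tested, 0.00582%) and the lowest adjusted p of a member was 0.884 (edgeR, Benjamini-Hochberg). The members with an unadjusted p under 0.05 then numbered 12, against 849 genes or 4.94% of all tested. Of these, 10 lay higher with PS-MP, namely Ndufa9, Ndufb4, Ndufb5, Sdhd, Cox7a2, Cox7a2l, Atp5g2, Atp5h, Atp5md and Atp5pb, and 2 lower, Ndufs6 and Uqcrb; the share of all genes was 2.72% higher and 2.22% lower. Over the members, the replicate number took 70.4% of the sum of squares, treatment 14.5% and neither 15.1%, against 56.6%, 15.3% and 28.0% over all genes tested and 74.8%, 9.29% and 15.9% over genes above 10 CPM. Treatment took 31.4% in complex II, which rests on 4 genes, and 12.4% to 18.4% in the others. These shares are not scaled by degrees of freedom, of which treatment had 1 and neither had 2.

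Genes around the chain gave small values too, and none of the lists below held a called gene. Of the 13 mitochondrially encoded subunits, which are built into the same complexes, 3 lay above 0, with a median log2 fold change of -0.04. For the nuclear members these were 58 of 80 and 0.05. Within numbers 1, 2 and 3 the mitochondrial median was 0.01, -0.03 and -0.14, against 0.15, 0.01 and 0.03 for the nuclear members. Without control 1 both medians were below 0, at -0.07 and -0.01. The lowest mitochondrial value was that of mt-Nd3, of complex I, at -0.25 ± 0.15. It had 257, 274 and 224 FPKM in PS-MP 1 to 3, against 275, 352 and 254 FPKM in control 1 to 3. Ndufa4l2, a paralogue of Ndufa4 that the name rule does not take, had 2.55, 3.45 and 2.78 FPKM in PS-MP 1 to 3, against 2.27, 1.53 and 1.65 FPKM in control 1 to 3. Its PS-MP libraries all lay above its control libraries, by 0.67 ± 0.23 on the log2 scale (edgeR, Benjamini-Hochberg adjusted p = 1.00), although PS-MP 1 and control 1 were close. Cycs, somatic cytochrome c, was at 0.07 ± 0.07, and Ndufab1, the acyl carrier subunit of complex I, at 0.09 ± 0.08.

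Assembly factors, which build the complexes without staying in them, had medians of 0.05 for complex I (10 of 15 above 0), 0.04 for complex II (4 of 4), -0.02 for complex III (4 of 9), 0.01 for complex IV (12 of 24) and -0.00 for complex V (2 of 5). Surf1, an early assembly factor of complex IV, had 11.9, 13.0 and 13.3 FPKM in PS-MP 1 to 3, against 9.75, 11.7 and 11.8 FPKM in control 1 to 3, at 0.18 ± 0.11, and its groups overlapped in CPM. Citrate cycle enzymes had a median of 0.02 (8 of 14 above 0), genes of the mitochondrial outer membrane, import and chaperones 0.03 (11 of 15), and genes of the mitochondrial stress response -0.01 (4 of 10). In the stress list, Bnip3, a mitophagy receptor, had 42.7, 46.4 and 53.1 FPKM in PS-MP 1 to 3, against 36.7, 41.7 and 47.1 FPKM in control 1 to 3, and a log2 fold change of 0.16 ± 0.12. Asns and Atf5, of the same list, lay below 0, at -0.16 ± 0.19 and -0.15 ± 0.10. Gdf15, a stress cytokine, followed the replicate number, with 10.3, 21.9 and 40.9 FPKM in PS-MP 1 to 3, against 8.86, 25.5 and 39.1 FPKM in control 1 to 3. Of the regulators of mitochondrial biogenesis, 8 of 15 lay above 0, with a median of 0.01. Among those above 10 CPM, Hif1a had the largest change, at -0.18 ± 0.12. Nrf1, Gabpa and Yy1, which are known to drive respiratory genes, were at -0.05 ± 0.12, -0.03 ± 0.08 and -0.02 ± 0.06, and the coactivator Ppargc1a had at most 0.106 FPKM in any library.

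Binding motifs of those last factors mark many respiratory promoters, so promoters of the members were searched, with motifs chosen after the expression values were seen. RefSeq promoters (GRCm38.p6, 250 bases before to 50 after the start) were found for 67 of the 82 members. Each gene counted once if any of its promoters held a motif on either strand. The NRF1 motif, searched by its core GCATGCGC, was in 10 members (14.9%), against 3.05% of 27025 genes in the table and 6.68% of 7280 genes above 10 CPM. The YY1 motif AAGATGGC was in 10 (14.9%), against 3.19% and 5.96%, with 7 in complex I, 3 in complex V and 0 in the other complexes. The ETS motif CCGGAAGT, of the kind that GABP binds, was in 5 (7.46%), against 4.31% and 10.6%. At least 1 motif was in 35.8% of members, against 9.91% and 21.5%, and matches of different motifs could overlap. The 100 bases before the start are shown for the highest-expressed gene with a match there in each of complexes I, II, III and V, so that the letters can be set beside the levels above. Capitals mark the NRF1 core in Ndufa8 and Sdhb, overlapping NRF1 cores on both strands in Atp5g2, and the ETS letters on the other strand in Uqcrh.
Ndufa8: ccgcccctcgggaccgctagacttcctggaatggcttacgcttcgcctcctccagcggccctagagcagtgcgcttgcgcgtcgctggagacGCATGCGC
Sdhb: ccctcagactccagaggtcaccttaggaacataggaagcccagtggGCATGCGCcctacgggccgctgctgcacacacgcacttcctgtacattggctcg
Uqcrh: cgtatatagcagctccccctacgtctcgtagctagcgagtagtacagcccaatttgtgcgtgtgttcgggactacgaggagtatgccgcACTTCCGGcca
Atp5g2: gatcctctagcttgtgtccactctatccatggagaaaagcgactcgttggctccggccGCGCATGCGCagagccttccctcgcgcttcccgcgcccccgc
The windows lie at chr2:36049339-36049438 (minus strand), chr4:140961171-140961270 (plus strand), chr4:116075071-116075170 (minus strand) and chr15:102671048-102671147 (minus strand), in that order. Counted back from the base before the start, the capitals cover -8 to -1 in Ndufa8, -54 to -47 in Sdhb, -11 to -4 in Uqcrh and -42 to -33 in Atp5g2, where the match on the other strand ends at -35 and the forward match begins at -40. Ndufa8, an accessory subunit of complex I, had 53.8, 51.9 and 56.2 FPKM in PS-MP 1 to 3, against 47.1, 56.3 and 57.6 FPKM in control 1 to 3, with overlapping groups and a log2 fold change of -0.01 ± 0.10. Of the other 3, Sdhb was at 0.14 ± 0.10, Uqcrh at 0.07 ± 0.08 and Atp5g2 at 0.18 ± 0.09, with no adjusted p below 1.00 (edgeR, Benjamini-Hochberg). A match of letters is a description of these windows and not evidence of a bound site.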

How the data were processed

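RNA was measured in 6 poly(A)-selected libraries, 3 PS-MP and 3 control. The submitters' processing notes list cutadapt 1.9, FastQC, HISAT2 2.2.1 and StringTie 2.1.6, with GRCm39 as the build. For every gene the authors deposited FPKM and a count in each library, per the file headers. The sources used here do not say how the counts were made or whether strand was used. Among the deposited values 4 occurs 6687 times, 3 occurs 3161 times and 5 occurs 2040 times, so the values the authors deposited are used as estimated counts, not as numbers of reads. A further 12 columns of per-library values under other names were not used.

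Members and lists were chosen with earlier results of these data known. Counts were tested over all genes with edgeR 4.0.16 in R 4.3.3 (TMM, filterByExpr, quasi-likelihood, treatment only, two-sided, Benjamini-Hochberg), after tests on simulated data. A call needed both an adjusted p below 0.05 and a fold change of 1.5 or more, the limits the labels' protocols give. log2 CPM values used a prior count of 2. The text names genes by a rule. It takes per complex the highest and lowest levels and log2 fold changes, the complex I core, paralogues and members whose groups did not overlap. Of the lists, the largest changes are named for some and not for all. Ndufs6, Gdf15 and Atf5 fall outside the rule and were chosen after their values were seen. So were the markers and regulators named singly, the motifs and the promoters. One member that the rule names is counted but not reported here. Exon overlaps came from GENCODE M39 (GRCm39); 56 members share exon bases with other genes, and for Ndufa3 (62.5%) and Ndufb11 (67.8%) that is most of them.

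Same-numbered samples were taken as pairs: deviations from the group means correlated at 0.809, 0.152 and 0.621 for numbers 1, 2 and 3 over 9324 genes above 10 CPM, all over 0.1. For number 2 the pairing was not clear. PS-MP 2 correlated more with control 3, at 0.381, and control 2 slightly more with PS-MP 3, at 0.166. No libraries were duplicates: chi-square per degree of freedom was 20.7 to 253 between them. Alternatives used DESeq2 1.42.0, limma 3.58.1, other scaling, filters, a replicate block, length offsets, fewer samples and counts divided by 4.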

Additional observations from a re-analysis of the deposited data

How the results depend on the processing

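The count of members called was 0 under every alternative, and the lowest adjusted p of a member in any of the 24 other fits was 0.525. The count of members at an unadjusted p under 0.05, which was 2, was less steady. It was 1 with upper-quartile scaling, 0 with DESeq2, 7 with limma-trend on log2(FPKM + 1) and 7 on log2(FPKM + 0.1), 12 with the replicate block, 1 with length offsets and no block, 9 with length offsets and the replicate block, and 0 to 3 when 1 library was left out. With the replicate block and 1 number left out it was 2, 6 and 14 without numbers 1, 2 and 3, and without the block 1, 0 and 0; those 3 fits without the block were chosen after seeing the data. The cause of these moves was not tested. The replicate block changed no call of a member. The medians of the members and of the complexes stayed within 1 SD of the libraries' spread in 150 of 150 values; 6 were below 0, and all 6 left out number 1 or 1 of its libraries. Among 1150 values of 48 single genes, 116 had the other sign, in 24 genes whose own log2 fold change was smaller than its standard error; 8 of these came without control 1. The lowest-expressed tested members, Cox7a1, Cox4i2 and Cox6b2, have intervals too wide to tell a change of 1.5-fold from none.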
